A study of Mus musculus with 18 samples.

Results

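Metallothioneins and the transporters that carry zinc and manganese were followed in mouse liver through 7 genes, chosen by name out of the 54532 genes listed in each table: the metallothioneins Mt1 and Mt2, their zinc-sensing regulator Mtf1, the exporters Slc30a1 and Slc30a10, and the importers Slc39a8 and Slc39a14. The names were selected with results of these same tables known, so the values of the 7 genes in the diet comparisons are a description, and nothing is read from how many of them passed a test. Metallothioneins are small, cysteine-rich proteins that bind zinc and copper and keep them out of reach of other molecules. Their genes are switched on by MTF1, a transcription factor that senses free zinc and binds metal response elements, and in liver also by glucocorticoids, by fasting and by interleukin-6 during inflammation. Transporters of the SLC30 family move zinc out of the cytosol, and those of the SLC39 family move it in. SLC30A10 exports manganese, and SLC39A8 and SLC39A14 bring manganese into hepatocytes, so together they set how much of this metal the liver takes from blood and passes into bile.

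All mice were wild-type (WT) male C57BL/6J animals that entered the diets at 4 wk of age and were fasted overnight before their livers were taken, with 1 library per mouse. Without fenofibrate, 5 mice ate the control diet (Ctrl) and 5 the 99% riboflavin-deficient diet (B2D) for 4 wk. With fenofibrate, a drug that activates the nuclear receptor PPARα, 4 mice ate the control diet (Ctrl+FF) and 4 the deficient diet (B2D+FF) for 9 wk, received 300 mg/kg by daily gavage in weeks 7 to 9 and were dosed a last time 2 hr before harvest. The control and the deficient diet carried the same mineral mix. Levels are FPKM, the reads on a gene per kilobase of its exons, scaled for library size within each table. The length counts every annotated exon base, 1246 for Mt1, whose 3-exon transcript has 549. Levels can therefore be compared between genes only roughly. Since the tables with and without fenofibrate were scaled separately and their mice also differed in weeks of diet, groups were tested only within a table, and an effect of fenofibrate cannot be told apart from one of time.

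The libraries held 15320729 to 21898502 reads on genes, and libraries of 1 group correlated at 0.958 to 0.990. The tissue was liver by its hepatocyte markers, of which 7 of 7 were expressed in every group. The summed level of each of 9 lists of cell type markers overlapped between the diets in 17 of 18 comparisons. The exception was the hepatocyte list with fenofibrate, whose sum was 35870.5 to 37656 FPKM in Ctrl+FF and 27912 to 33884 in B2D+FF. Its part in the results with fenofibrate was not tested. A sum follows its most abundant genes, and single markers were called in the limma comparison described below. Alas2, of the erythroid list, was lower in both experiments, at log2 differences of -1.36 and -1.37 (limma adjusted p = 0.0114 and 0.000918). Clec4f (Kupffer) was lower without fenofibrate (limma adjusted p = 0.0412). Lyve1 (endothelial) and Retnlg (neutrophil) were higher with it (limma adjusted p = 0.0294 and 0.0280). The other endothelial markers had log2 differences below 0 with fenofibrate, from -0.32 (Fcgr2b) to -0.004 (Pecam1), and none was called. In whole tissue, fewer cells of a type and less RNA per cell cannot be told apart.

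Mt1 and Mt2 lie next to each other on mouse chromosome 8, Mt2 at chr8:94172664-94173568 and Mt1 at chr8:94179082-94180327 on the plus strand of GRCm38, with 5513 bases between them. Their coding sequences, from the GENCODE M21 transcripts of 3 exons each, are shown because they carry what makes these proteins metal binders. The capitals mark the cysteine codons, TGC or TGT, 20 of the 61 codons in each gene.
Mt1: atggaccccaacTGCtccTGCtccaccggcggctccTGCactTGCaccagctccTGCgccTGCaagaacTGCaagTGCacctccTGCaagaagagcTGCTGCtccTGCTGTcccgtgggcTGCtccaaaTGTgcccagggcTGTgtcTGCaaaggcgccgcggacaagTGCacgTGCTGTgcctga
Mt2: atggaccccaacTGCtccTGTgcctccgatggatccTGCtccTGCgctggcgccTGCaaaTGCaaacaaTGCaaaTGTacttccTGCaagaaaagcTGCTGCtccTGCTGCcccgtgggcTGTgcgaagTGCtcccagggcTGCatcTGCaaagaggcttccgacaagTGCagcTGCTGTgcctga
The 20 cysteine codons stood at the same positions in both, and 148 of the 186 bases (79.6%) were identical. The longest run of bases shared by the transcripts was 20, against sequencing reads of 150 bases, so a whole read of one gene did not match the other.

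Of the other 5 genes, Slc30a1 (chr1:191906767-191913247) and Slc30a10 (chr1:185454848-185468762) share chromosome 1, Mtf1 is at chr4:124802104-124849800, Slc39a8 at chr3:135825279-135888572 and, alone on the minus strand, Slc39a14 at chr14:70303469-70351425.

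The starts of the chosen genes other than Slc39a14 were searched on both strands for the core of the metal response element, written as TGCACNC or TGCGCNC. No upstream sequence was matched for Slc39a14, so it was not searched. The stretch ahead of the start codon was searched for Mt1 and Mt2 only. The stretch ahead of the start codon in the longest annotated transcript of Mt1, 229 bases, held 4 separate matches: TGCACTC and TGCGCTC, then TGCACCC on the minus strand and TGCGCCC. Of 18513 coding transcripts with a leader at least as long, 21.2% held a match in the same stretch and 0.13% held as many. A shorter annotated Mt1 transcript begins 70 bases ahead of the start codon, and all 4 matches lay upstream of it, from 220 to 118 bases ahead of the codon. The 184 bases ahead of the start codon of Mt2 held 3 matches, TGCACAC and TGCACGC on the minus strand and TGCGCTC on the plus strand, as many as 0.366% of 23480 transcripts. The 250 bases upstream of the RefSeq start (build GRCm38.p6, all on the plus strand) are shown for both metallothioneins and for Slc30a10, the exporter whose diet effect differed between the experiments, with each match in capitals, a match on the minus strand being printed as its complement.
Mt1, chr8:94178839-94179088: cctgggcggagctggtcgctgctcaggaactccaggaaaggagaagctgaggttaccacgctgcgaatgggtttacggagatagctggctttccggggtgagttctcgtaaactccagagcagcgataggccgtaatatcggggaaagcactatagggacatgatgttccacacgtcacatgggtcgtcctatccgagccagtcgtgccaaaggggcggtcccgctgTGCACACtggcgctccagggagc
Mt2, chr8:94172368-94172617: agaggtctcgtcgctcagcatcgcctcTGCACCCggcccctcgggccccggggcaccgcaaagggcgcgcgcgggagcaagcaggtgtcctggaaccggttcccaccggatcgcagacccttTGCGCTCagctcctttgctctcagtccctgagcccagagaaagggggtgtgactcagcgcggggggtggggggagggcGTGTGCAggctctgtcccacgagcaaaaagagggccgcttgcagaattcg
Slc30a10, chr1:185454598-185454847: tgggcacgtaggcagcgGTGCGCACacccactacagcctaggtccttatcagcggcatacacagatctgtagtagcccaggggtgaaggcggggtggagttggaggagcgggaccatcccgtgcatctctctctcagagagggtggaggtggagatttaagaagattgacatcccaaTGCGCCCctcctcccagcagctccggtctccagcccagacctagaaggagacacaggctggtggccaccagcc
Mt2 had 3 matches in this window, Slc30a10 had 2 (the first of them read on both strands, with overlapping matches), and Mt1 and Slc30a1 had 1 each. Of 32851 such windows, 21.4% held a match, 4.3% held at least 2 and 0.77% at least 3. The window of Mtf1 and the first window of Slc39a8 held none, and the second window of Slc39a8 held 1. A match is a description of the sequence and was not tested as a binding site.

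The diet groups were compared gene by gene with limma over all genes of a table, on the log2(FPKM + 1) scale, and a gene was called at a Benjamini-Hochberg adjusted p under 0.05. Of the 7 genes, 1 was called without fenofibrate (Mt1), beside 2.7% of the 11574 genes tested, and 1 with fenofibrate (Mt1), beside 4.45% of 11878. For the difference of the diet effects, 1 was called (Slc30a10), beside 0.228% of 11862 genes. The diet groups did not overlap for 1 of the 7 genes without fenofibrate, where 4.98% of all genes tested did not, and for 2 with fenofibrate, where 14.3% did not. All 7 passed the filter of a mean of 0.5 FPKM, and their counts are given as a description, since they were chosen with these results known.

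Mt1 was the most abundant of the 7 mRNAs in every group, and it was higher on the deficient diet in both experiments. In Ctrl livers it was listed at 117, 56.4, 143, 78.7 and 37.3 FPKM in mice 1 to 5. In B2D livers it was listed at 248, 396, 181, 325 and 399.8 FPKM. Each B2D mouse was above each Ctrl mouse, the closest pair being B2D mouse 3 and Ctrl mouse 3. The mean was 86.5 ± 43.3 FPKM for the 5 Ctrl mice and 310.1 ± 95.1 for the 5 B2D mice (SD), 3.59 times as high. The log2 difference of Mt1 was 1.93 (SE 0.34, 95% confidence interval 1.18 to 2.67). By mean level it was the 546th gene of all in Ctrl and the 143rd in B2D.

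With fenofibrate the order was the same. Mt1 was listed at 204, 159, 119.6 and 274 FPKM in Ctrl+FF and at 406, 825, 472 and 527 FPKM in B2D+FF, again with no overlap. The means were 189 ± 66.1 and 558 ± 185 FPKM (SD, n = 4 each), a ratio of 2.95, and the log2 difference was 1.57 (SE 0.28, 95% confidence interval 0.94 to 2.20). B2D+FF mouse 2, at 825 FPKM, stood highest of its group. The diet difference of Mt1 with fenofibrate minus that without was -0.36 on the log2 scale, with a 95% confidence interval of -1.39 to 0.68, so neither a smaller nor a larger response with fenofibrate could be shown. Leaving out Ctrl+FF mouse 1 or Ctrl+FF mouse 2 took the call away with fenofibrate, at log2 differences of 1.63 and 1.51, while without fenofibrate it stood in 10 of 10 such fits. With no filter on low genes, where more genes were tested, the call of Mt1 was lost in both comparisons, and under the other 6 of the 7 settings tried it stood in each.

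**Figure D1:**
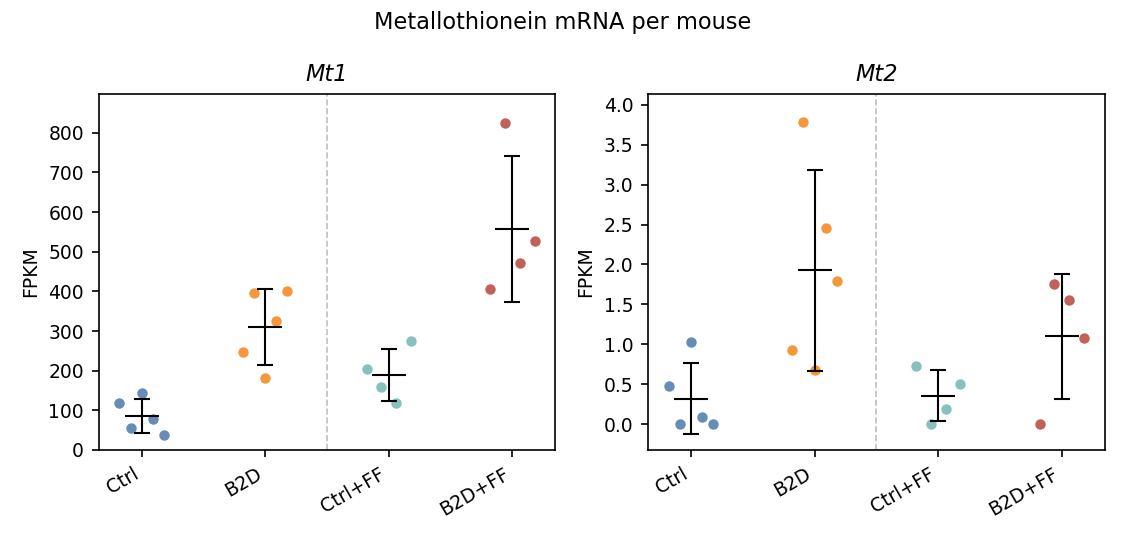
Level of Mt1 (left) and Mt2 (right) in FPKM, on linear axes, in each mouse of the 4 groups, with the group mean and bars of 1 SD, where the dashed line separates tables that were scaled separately. Every deficient mouse lies above every control mouse of its table for Mt1 (181 to 399.8 against 37.3 to 143 FPKM, and 406 to 825 against 119.6 to 274), whereas Mt2 stays at or below 3.79 FPKM and its groups overlap.

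Mt2, whose protein is nearly interchangeable with that of Mt1 as a zinc store, was listed close to 0. The 5 Ctrl mice had 0.478, 0, 1.03, 0.0857 and 0 FPKM, which is 5, 0, 12, 1 and 0 reads. The 5 B2D mice had 0.924, 3.79, 0.678, 2.45 and 1.79 FPKM, or 10, 38, 7, 28 and 20 reads. B2D values were mostly higher, but the lowest of them, in mice 1 and 3, were below Ctrl mouse 3.

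The log2 difference of Mt2 was 1.10 (SE 0.29) without fenofibrate and 0.56 (SE 0.31) with it, and neither passed the threshold. Adding 1 FPKM before the log holds these values down, and the ratio of the mean levels was 6.03 without fenofibrate and 3.09 with it. Under 6 other settings the log2 difference of Mt2 ran from 1.10 to 3.28 without fenofibrate, highest with voom, and passed in 2, array weights and voom. With fenofibrate it ran from 0.54 to 1.33 and passed in 0 of 6. Without B2D mouse 3 or Ctrl mouse 3 the difference without fenofibrate passed, at 1.28 and 1.27. With fenofibrate it was listed at 0.725, 0, 0.196 and 0.502 FPKM in Ctrl+FF and at 0, 1.76, 1.56 and 1.08 FPKM in B2D+FF. The library with no Mt2 read in B2D+FF was mouse 1, which was also the lowest of its group for Mt1. Mean Mt2 was 0.32 ± 0.446 FPKM in Ctrl and 0.356 ± 0.322 in Ctrl+FF, so it passed the filter of a mean of 0.5 FPKM through the deficient groups.

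The annotation limits what these Mt2 values measure. A gene on the opposite strand, Gm45774 (chr8:94170748-94173412), covers 432 of the 588 exon bases of Mt2 (73.5%) and none of the 1246 exon bases of Mt1. The library kit does not mark strand, so reads from the shared bases cannot be assigned to a strand, and only 156 exon bases belong to Mt2 alone. Gm45774 itself was listed at 0 to 5 reads in Ctrl, 0 to 8 in B2D, 2 to 6 in Ctrl+FF and 11 to 30 in B2D+FF. How much of the low level of Mt2 comes from the counting of these shared bases was not tested.

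Slc30a10, the exporter that sends manganese out of hepatocytes into bile, stood on opposite sides of its control level in the 2 experiments. In Ctrl it was listed at 1.91, 1.78, 1.91, 1.39 and 2.95 FPKM. In B2D it was listed at 3.83, 3.6, 3.08, 2.89 and 2.82 FPKM. B2D was higher apart from Ctrl mouse 5, which was above B2D mice 4 and 5, so the groups overlapped.

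The means of Slc30a10 were 1.99 ± 0.578 FPKM in Ctrl against 3.24 ± 0.451 in B2D (SD, n = 5 each), with a log2 difference of 0.52 (SE 0.13, 95% confidence interval 0.24 to 0.80). With fenofibrate it was listed at 2.16, 2.67, 1.59 and 2.46 FPKM in Ctrl+FF and at 1.23, 1.42, 1.31 and 1.48 in B2D+FF. Here every deficient mouse was below every control mouse. The means were 2.22 ± 0.468 and 1.36 ± 0.114 FPKM (SD, n = 4 each), with a log2 difference of -0.44 (SE 0.11, 95% confidence interval -0.69 to -0.19). Adding 1 FPKM before the log shrinks both differences. The ratio of the deficient to the control mean was 1.63 without fenofibrate and 0.613 with it.

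Neither diet difference of Slc30a10 alone passed the threshold as reported. The difference without fenofibrate passed under 2 of 6 other settings, array weights and voom, and at 0.63 without Ctrl mouse 5. The difference with fenofibrate passed under 3 of 6, array weights, upper quartile scaling and voom, and at -0.54 without Ctrl+FF mouse 3. The difference between the effects passed, at -0.96 (SE 0.18, 95% confidence interval -1.33 to -0.58) on the log2 scale. Under 6 other settings it ran from -1.40 to -0.92 and passed in 5. With any single library left out it was -1.06 to -0.88, and it was past the threshold in 9 of 18 such fits. Slc30a10 was chosen with this result known, so these refits of the same values are a description. The fits that lost it left out Ctrl mouse 1 or 2, B2D mouse 2, Ctrl+FF mouse 1, 2 or 4, or B2D+FF mouse 1, 3 or 4. Between 122 and 412 reads per library lay behind these values.

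Slc39a14, an importer of manganese, zinc and iron that is known to be induced in liver during inflammation, was the second most abundant of the 7 mRNAs in every group. It was listed at 25.7, 22.3, 32.8, 23.2 and 19.1 FPKM in Ctrl and at 24.8, 25.9, 27.5, 23.0 and 32.7 in B2D. These ranges almost coincided, and the log2 difference was 0.13 (SE 0.14). With fenofibrate its values were 11.5, 12.4, 11.3 and 13.8 FPKM in Ctrl+FF and 13.8, 18.4, 14.7 and 12.6 in B2D+FF, with a log2 difference of 0.25 (SE 0.12).

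Slc39a8, the related importer that reclaims manganese from bile, was listed at 2.19 to 2.96 FPKM in Ctrl (median 2.75) and 2.89 to 4.0 in B2D (median 3.27). A single Ctrl mouse, mouse 2, was above the lowest B2D mouse. The log2 difference was 0.27 (SE 0.10) without fenofibrate and 0.09 (SE 0.07) with it, where the ranges were 2.02 to 2.15 and 2.04 to 2.62 FPKM.

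Slc30a1, the zinc exporter of the cell surface and a textbook target of MTF1, had overlapping ranges on both diets. It was listed at 6.94 to 9.47 FPKM in Ctrl and 5.93 to 10.2 in B2D, with a log2 difference of -0.01 and a 95% confidence interval of -0.30 to 0.28. With fenofibrate it ranged from 5.03 to 8.28 FPKM in Ctrl+FF and from 5.28 to 8.02 in B2D+FF, and the difference was 0.09 (-0.27 to 0.45). The ratio of its mean level on the deficient to that on the control diet was 0.998 without fenofibrate and 1.07 with it, next to ratios of 3.59 and 2.95 for Mt1. These ratios are a description, and the part of MTF1 in the level of either gene was not tested.

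Mtf1, the regulator, was listed at 1.51 to 2.08 FPKM in Ctrl, 1.26 to 2.08 in B2D, 1.26 to 1.55 in Ctrl+FF and 1.39 to 1.63 in B2D+FF. Its log2 differences were -0.05 (95% confidence interval -0.27 to 0.18) and 0.07 (-0.09 to 0.24). These intervals bound the change of Mtf1 mRNA and say nothing of the activity of its protein, which zinc controls.

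**Figure D2:**
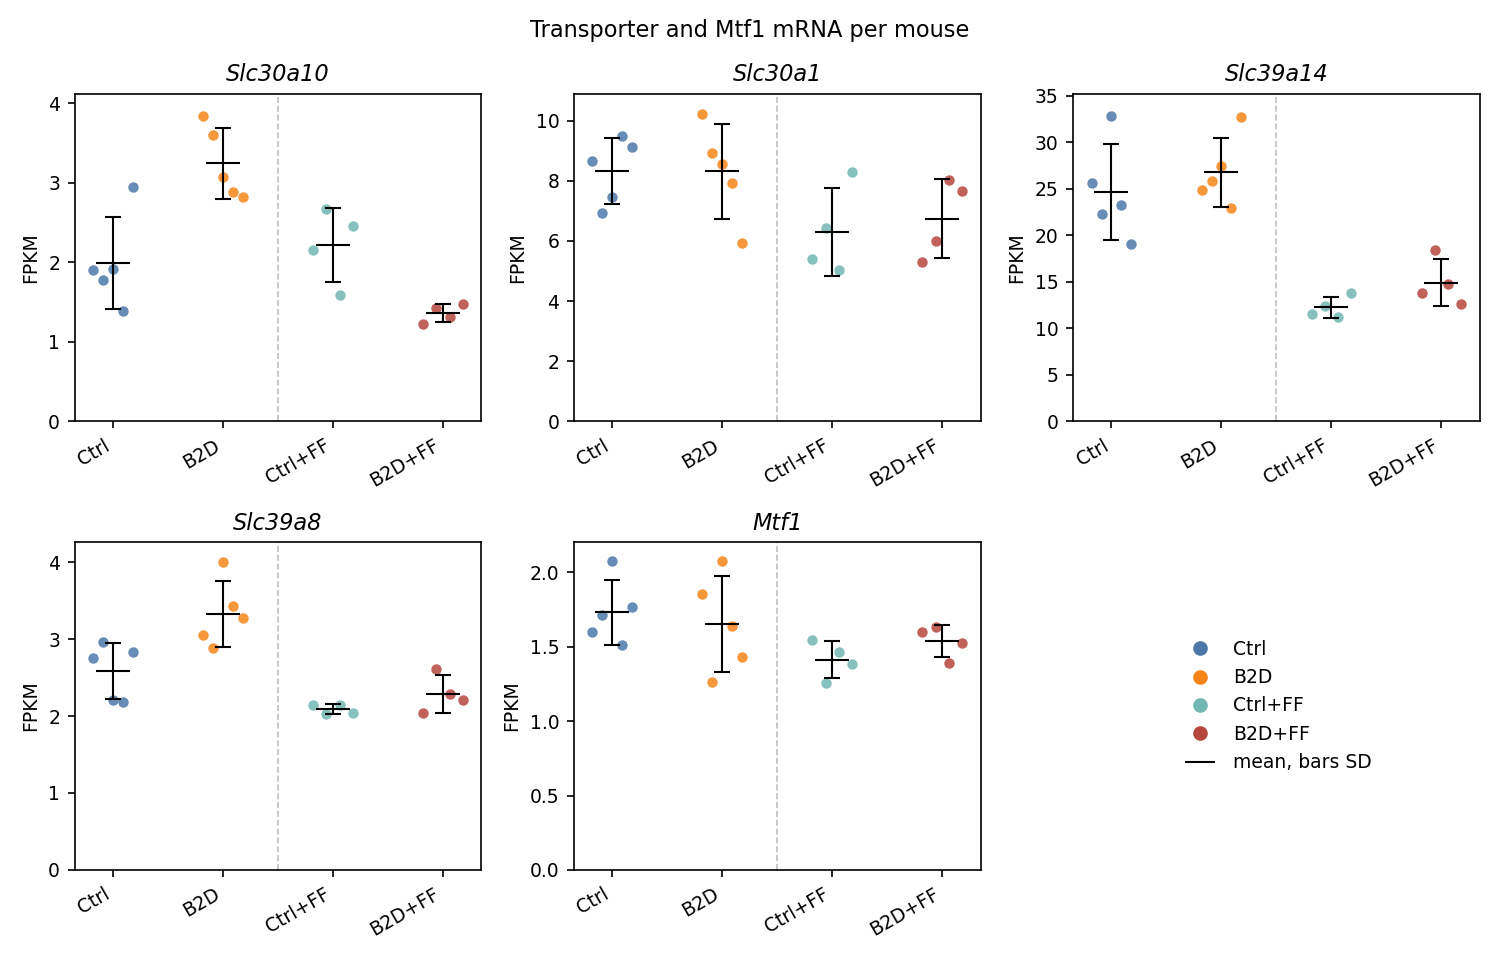
Level of the 4 transporters and Mtf1 in FPKM, on linear axes from 0, in each mouse of the 4 groups, with the group mean and bars of 1 SD, where the dashed line separates tables that were scaled separately. Slc30a10 is mostly higher in B2D than in Ctrl (mean 3.24 against 1.99 FPKM) and lower in every B2D+FF mouse than in any Ctrl+FF mouse (1.23 to 1.48 against 1.59 to 2.67), while the groups of the other 4 genes overlap.

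By mean level the order in Ctrl was Mt1, Slc39a14, Slc30a1, Slc39a8, Slc30a10, Mtf1 and Mt2. The first 3 did not overlap with their neighbours in this order in any group, whereas Slc39a8 and Slc30a10 overlapped in Ctrl, B2D and Ctrl+FF and Slc30a10 overlapped with Mtf1 in Ctrl and B2D+FF. Slc30a10 ranked 5th in Ctrl and B2D, 4th in Ctrl+FF and 6th in B2D+FF, below Mtf1. Across mice of 1 group, the coefficient of variation of Mt1 ran from 30.7% to 50.04%, against 6.93% to 19.7% for Mtf1.

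Genes beyond the 7 were read against all genes tested. Without fenofibrate 49.8% of these were above 0, 8.24% were higher and 10.1% lower at an unadjusted p under 0.05, and 0.769% were called higher and 1.94% lower. With fenofibrate 52.8% were above 0, 11.3% were higher and 9.93% lower at an unadjusted p under 0.05, and 2.24% were called higher and 2.21% lower. For the difference of the diet effects 52.4% were above 0, and 6.69% were higher and 5.21% lower at an unadjusted p under 0.05.

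The 22 metallothionein, SLC30 and SLC39 genes that remained once the chosen genes were taken out of these families were tested as well. The chosen genes had been picked with the diet results known. The remainder is therefore not a whole family, and how few of its genes passed depends in part on that removal. Mt4 was at 0 in every library, Mt3 was at or near 0, and 14 and 13 of the 22 were expressed enough to be tested without and with fenofibrate. None passed the threshold in limma in either diet comparison or for the difference of the effects. At an unadjusted p under 0.05, 1 was higher and 1 lower without fenofibrate, 1 was higher with it, and 2 were lower for the difference. In limma with voom on the recovered reads, 1 gene passed in each diet comparison, Slc39a4 and Slc39a5, and 0 for the difference. The median log2 difference was 0.01 without fenofibrate and -0.04 with it, beside 0.00 and 0.01 over all genes tested.

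Slc39a1, Slc39a5 and Slc39a4 are described because their means over all 18 libraries were the highest of these relatives. That mean pools tables scaled separately, and in Ctrl the second highest was Slc30a5, at 6.05 FPKM, with Slc39a5 at 1.22. Slc39a1, a zinc importer of the cell surface, was at 33.7 ± 1.72 FPKM in Ctrl against 29.7 ± 2.88 in B2D, with a log2 difference of -0.18 (SE 0.09, limma adjusted p = 0.329). Slc39a4, the importer best known for zinc uptake in the gut, was listed at 4.45 to 5.81 FPKM in Ctrl and 5.86 to 14.6 in B2D, so every B2D mouse was above every Ctrl mouse, and its log2 difference of 0.76 (SE 0.18) had a limma adjusted p of 0.0501. Under 7 other settings its adjusted p ran from 0.0286 to 0.148 and passed in 6, and without B2D mouse 5 it was 0.0137. With fenofibrate its difference was 0.00 (95% confidence interval -0.56 to 0.57), and the difference of the effects, -0.76, did not pass (adjusted p = 0.365 in limma).

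Slc39a5, an importer of the hepatocyte and intestinal cell surface, was listed at 14.3 to 25.8 FPKM in Ctrl+FF and 28.0 to 32.8 in B2D+FF. Every deficient mouse was above every control mouse, and the log2 difference of 0.58 (SE 0.16) had an adjusted p of 0.0669 in limma, from 0.0354 to 0.144 under 7 other settings and 0.0397 without Ctrl+FF mouse 4. Without fenofibrate it was at 1.22 ± 0.552 FPKM in Ctrl against 1.503 ± 0.309 in B2D, a difference of 0.20 (adjusted p = 0.527 in limma).

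**Figure D3:**
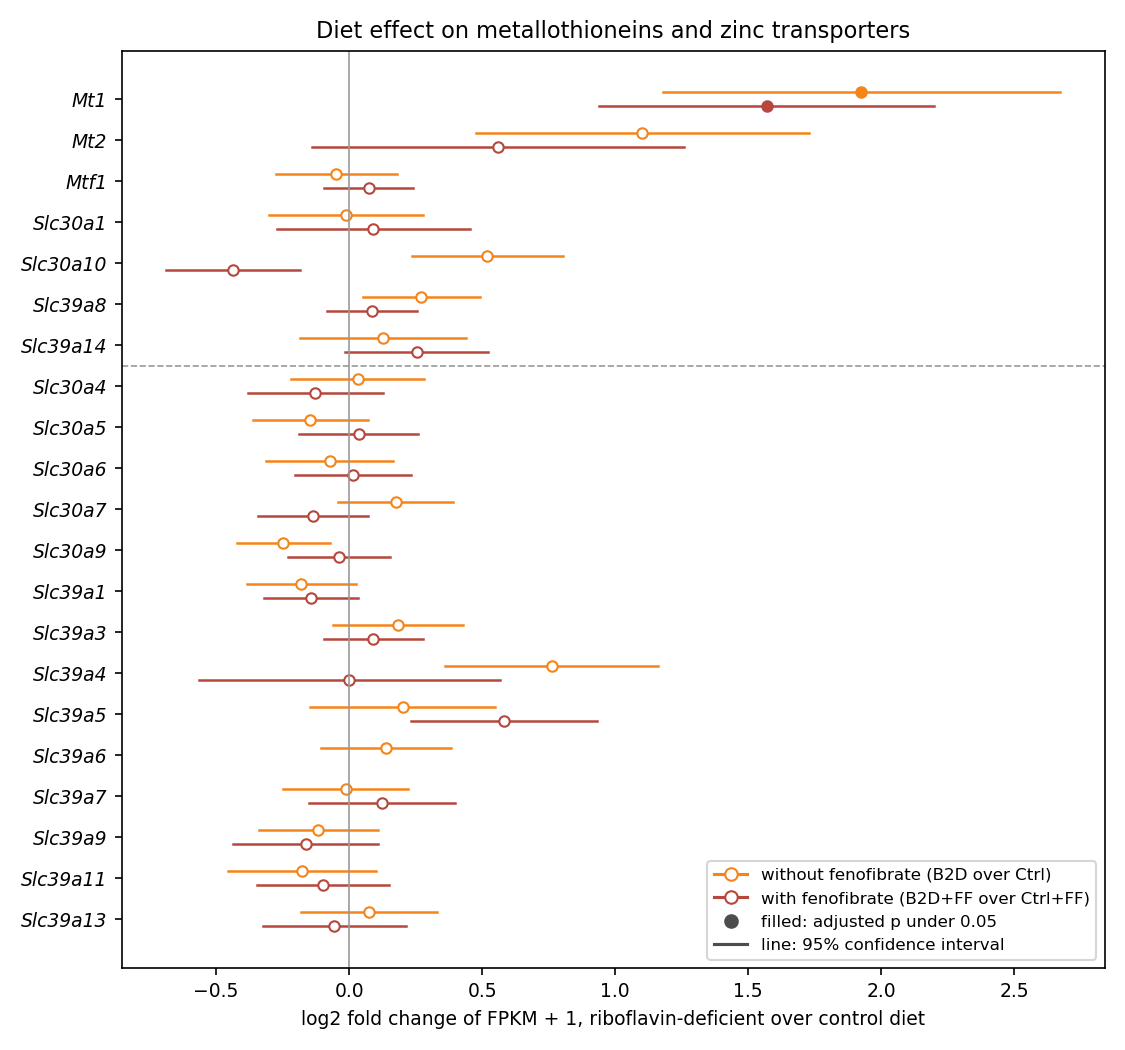
Log2 difference of FPKM + 1 between the deficient and the control diet, without and with fenofibrate, for the 7 chosen genes (above the dashed line) and the tested metallothionein, SLC30 and SLC39 relatives (below it), where lines are 95% confidence intervals and filled points passed an adjusted p of 0.05 in limma. Mt1 stands at 1.93 and 1.57, Slc30a10 at 0.52 and -0.44, and the relatives between -0.25 and 0.76. Slc39a6 was tested without fenofibrate only.

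Genes of neighbouring pathways were read from lists written from general knowledge, with earlier results of these data known. Each list is described by its counts and its median, to be read beside the shares of all genes tested, without a test of the list. Of 6 other targets reported for MTF1, 4 were tested, and 1 was called without fenofibrate. It was Ndrg1, a stress-responsive gene also driven by hypoxia, at 0.85 ± 0.221 FPKM in Ctrl against 1.60 ± 0.344 in B2D, with a log2 difference of 0.49 (SE 0.12, limma adjusted p = 0.0474). That call was lost in each of 10 fits with a library left out. The median of the 4 genes was -0.17 without fenofibrate and 0.14 with it, where 0 were called by limma or voom and 1, at an unadjusted p under 0.05, was higher.

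Of 12 genes of manganese handling and manganese enzymes, 11 were in the tables and all 11 were tested. Without fenofibrate limma and voom called 0 of them, 1 was higher at an unadjusted p under 0.05, and the median was -0.04. With fenofibrate limma called 1 higher and voom 2, and 2 were higher and 1 lower at an unadjusted p under 0.05. The gene called by limma was Arg1, the manganese-dependent arginase of the urea cycle. It was at 930.2 ± 125 FPKM in Ctrl+FF against 1445 ± 180.0 in B2D+FF, with no overlap and a log2 difference of 0.64 (SE 0.14, limma adjusted p = 0.0327). The call stood in 2 of 8 fits with a library left out, those without B2D+FF mouse 2 or Ctrl+FF mouse 3, and the median of the list was 0.08.

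The list of 14 copper genes, of which 11 were tested, had 10 log2 differences below 0 and 1 above it without fenofibrate, with a median of -0.24. None of them was called by limma or voom, and 3 were lower and 1 higher at an unadjusted p under 0.05. With fenofibrate the median was 0.02, with 6 above and 5 below 0, and 0 were called or had an unadjusted p under 0.05. For the difference of the effects the median was 0.25, with 10 of 11 above 0, 0 called, and 1 higher and 1 lower at an unadjusted p under 0.05.

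All 8 genes of the glucocorticoid list, which share with metallothioneins their induction by the glucocorticoid receptor, had log2 differences above 0 without fenofibrate, with a median of 0.49 beside 0.00 over all genes. None passed in limma, 1 passed with voom, and 2 were higher at an unadjusted p under 0.05. With fenofibrate 3 of 8 passed in limma and 3 with voom, 4 were higher at an unadjusted p under 0.05, the median was 0.54, and 1 gene was below 0. Tat, the tyrosine aminotransferase that feeds amino acid carbon into glucose production, was at 299 ± 84.6 FPKM in Ctrl+FF against 751 ± 181 in B2D+FF, a log2 difference of 1.35 (SE 0.25, limma adjusted p = 0.0188).

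Zbtb16, a transcription factor induced by glucocorticoids in many tissues, was at 3.52 ± 1.41 FPKM in Ctrl+FF against 9.28 ± 1.35 in B2D+FF (log2 difference 1.23, SE 0.20, limma adjusted p = 0.0135). Fkbp5, which restrains the glucocorticoid receptor in a feedback loop, was at 10.1 ± 1.33 and 15.6 ± 2.05 FPKM (0.58, SE 0.12, adjusted p = 0.0275 in limma). The call of Zbtb16 stood in 8 of 8 fits with a library left out, that of Tat in 7 (not without Ctrl+FF mouse 1) and that of Fkbp5 in 2 (without B2D+FF mouse 2 or Ctrl+FF mouse 4). For the difference of the effects 0 of the 8 genes passed in limma or voom, and 0 had an unadjusted p under 0.05.

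Of 24 acute-phase and interleukin-6 responsive genes, limma called 2 higher and 0 lower without fenofibrate, as did voom, 4 were higher and 1 lower at an unadjusted p under 0.05, and the median was 0.08. Those called by limma were Apcs, the serum amyloid P component, at 52.1 ± 11.0 FPKM in Ctrl against 79.9 ± 8.21 in B2D (log2 difference 0.63, SE 0.14, limma adjusted p = 0.0397), and Lcn2, an iron-scavenging lipocalin, at 1.15 ± 0.384 and 2.92 ± 1.28 FPKM (0.83, SE 0.20, limma adjusted p = 0.0477). Each call stood in 1 of 10 fits with a library left out, that without Ctrl mouse 2 for Apcs and that without B2D mouse 3 for Lcn2. The summed level of 4 neutrophil markers ran from 0.431 to 1.99 FPKM in Ctrl and from 1.64 to 5.80 in B2D, and its part in the level of Lcn2, which neutrophils also make, was not tested.

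With fenofibrate limma called 2 of the 24 higher and 3 lower, voom called as many, 4 were higher and 3 lower at an unadjusted p under 0.05, and the median was 0.02. The lower ones were the serum amyloid A genes, whose proteins surge in the blood during acute inflammation. Saa2 was at 4.52 ± 2.41 FPKM in Ctrl+FF against 0.461 ± 0.0977 in B2D+FF (log2 difference -1.81, SE 0.28, limma adjusted p = 0.0103), and Saa3 at 1.10 ± 0.298 and 0.211 ± 0.118 FPKM (-0.79, SE 0.12, limma adjusted p = 0.0109). Adding 1 FPKM before the log shrinks these differences. The ratio of the B2D+FF to the Ctrl+FF mean was 0.102 for Saa2 and 0.193 for Saa3. Saa1, named after its values were seen, was at 8.21 ± 4.51 and 1.99 ± 1.17 FPKM (-1.58, SE 0.35, limma adjusted p = 0.0387) and kept its call in 2 of 8 fits with a library left out, those without Ctrl+FF mouse 2 or B2D+FF mouse 4, where Saa2 and Saa3 kept theirs in 8.

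The higher ones were Orm3, an orosomucoid gene, at 7.40 ± 0.865 FPKM in Ctrl+FF against 16.5 ± 4.03 in B2D+FF (log2 difference 1.03, SE 0.16, limma adjusted p = 0.0105), and Cebpd, a transcription factor of the acute phase, at 3.97 ± 0.493 and 6.35 ± 1.18 FPKM (0.55, SE 0.13, adjusted p = 0.0465). Cebpd was likewise named after its values were seen, and its call stood in 1 of 8 fits with a library left out, that without B2D+FF mouse 4. Orm3 has the related genes Orm1 and Orm2, as Saa1 has Saa2. Their sequences were not compared, and whether reads were split between such relatives was not tested. For the difference of the effects none of the 24 passed in limma or voom, and 3 were lower at an unadjusted p under 0.05.

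Of 10 targets of NRF2, the regulator of the antioxidant response, 9 were tested, and 0 were called by limma or voom without fenofibrate, where 1 was higher and 2 were lower at an unadjusted p under 0.05 and the median was -0.13. With fenofibrate 1 was called and 7 of 9 were above 0, with a median of 0.39, voom called 3, and 5 were higher at an unadjusted p under 0.05. The called gene was Nqo1, a quinone reductase that itself uses FAD, at 7.65 ± 0.584 FPKM in Ctrl+FF against 12.1 ± 1.40 in B2D+FF (log2 difference 0.59, SE 0.10, limma adjusted p = 0.0133). Its call was lost without Ctrl+FF mouse 2. For the difference of the effects, limma and voom called 0 genes of the MTF1, manganese and NRF2 lists, whose medians were 0.17, 0.14 and 0.28 beside 0.01 over all genes, and 0, 1 and 1 were higher at an unadjusted p under 0.05.

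**Figure D4:**
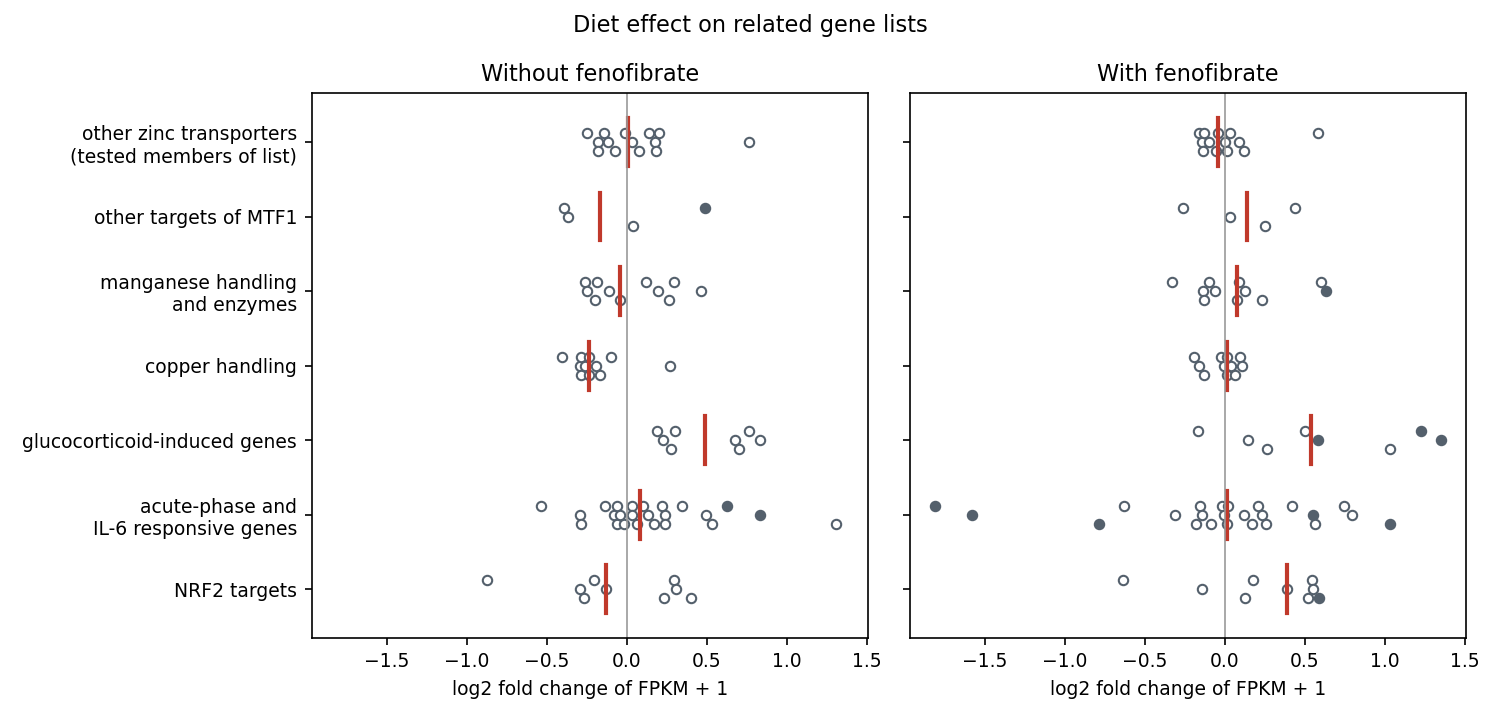
Log2 difference of FPKM + 1 between the deficient and the control diet for each tested gene of 7 lists, without fenofibrate (left) and with it (right), where red bars mark the median of a list and filled points passed an adjusted p of 0.05 in limma. The glucocorticoid-induced genes have medians of 0.49 and 0.54, and the copper genes -0.24 and 0.02.

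How the 7 genes varied between mice of the same group was not part of the rule that chose them, so it was tested. Values of 1 library share its preparation and scaling. The deviation of each library from the mean of its own group was taken on the log2(FPKM + 1) scale, and the 21 pairs of genes were correlated over the 18 libraries, with p-values from 100000 permutations within groups. Mt1 and Mt2 went together, with a Pearson r of 0.74 (permutation p = 0.00097, Benjamini-Hochberg adjusted p = 0.0204) and a Spearman rho of 0.74 (permutation p = 0.00174, adjusted p = 0.0365). The r was 0.81 over the 10 libraries without fenofibrate, 0.63 over the 8 with it, and 0.72 without the 2 libraries farthest from the median of Mt1. Mt2 limits this relation, since it passed the expression filter through the deficient groups. It had 0 to 12 reads per Ctrl library and 0 to 7 per Ctrl+FF library, and 73.5% of its exon bases are shared with Gm45774.

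Mt1 and Slc39a14 also went together, with a Pearson r of 0.73 (permutation p = 0.00388, adjusted p = 0.0407). The Spearman rho of 0.68 (permutation p = 0.00858) had an adjusted p of 0.0901 and did not pass. The r was 0.72 and 0.74 within the tables and 0.55 without the 2 farthest libraries. How many of all genes went with Mt1 as closely within groups was not counted. Neither relation is therefore shown to be particular to its pair. The 2 mice highest for Slc39a14 without fenofibrate, Ctrl mouse 3 (32.8 FPKM) and B2D mouse 5 (32.7), were also the highest of their groups for Mt1, as was B2D+FF mouse 2. The other 19 pairs had adjusted permutation p-values from 0.390 upward for Pearson's r and from 0.266 upward for Spearman's rho. Among them were Mt1 with Slc30a1 (r = -0.02), with Slc30a10 (r = -0.13) and with Mtf1 (r = -0.21). In this order their r was -0.31, -0.43 and -0.31 without fenofibrate, and 0.43, 0.58 and 0.19 with it. This change of sign between the tables was not tested.

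**Figure D5:**
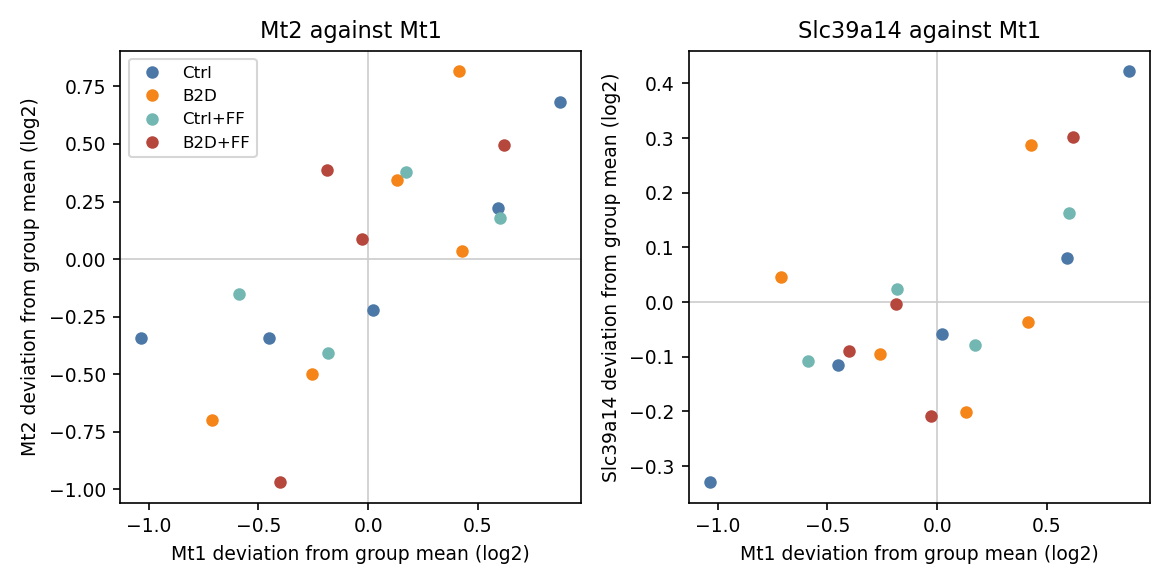
Deviation of each of the 18 libraries from its group mean, in log2(FPKM + 1), for Mt2 (left) and Slc39a14 (right) against Mt1, colored by group. Both panels slope upward, with a Pearson r of 0.74 and 0.73, and Ctrl mice 3 and 5 lie at the ends of the Slc39a14 panel.

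Among 4281 protein-coding genes with a mean of at least 5 FPKM in both tables, Fastk, Actg1, Sall1, Sfpq and Ccnk had the pattern most like that of Mt1, measured by the smaller of the Pearson r over the 10 libraries without fenofibrate and that over the 8 with it. This smaller r was 0.90 for Fastk, 0.88 for Actg1 and Sall1, 0.87 for Sfpq and 0.85 for Ccnk. The points share their diet groups, so the r holds the diet difference as well as the spread between mice, and it is given as a description. Actg1, a cytoskeletal actin, was at 32.5 and 65.5 FPKM in Ctrl and B2D and at 23.2 and 60.2 in Ctrl+FF and B2D+FF, with log2 differences of 0.94 and 1.31.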

How the data were processed

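Liver RNA of 18 mice was analysed. Per the study's methods, reads were mapped to mm10 by STAR and assigned to genes by featureCounts, and the authors deposited the result as FPKM, 1 table per experiment (the methods call the values RPKM). Versions and the annotation release are not given in the sources used here. Besides FPKM and gene annotation the tables held no other columns, and the authors' own DESeq2 comparisons were not used. In each library FPKM times gene length came out as whole reads for 100% of values (tolerance 0.05 reads).

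The genes followed and all gene lists were chosen with earlier results of these data known. Genes with a mean of at least 0.5 FPKM were fitted on log2(FPKM + 1), which understates the change of low genes, by limma 3.58.1 with a trend (R 4.3.3), each table alone, with Benjamini-Hochberg adjustment over all genes tested. The difference of the diet effects was a contrast in 1 fit of the 18 libraries. The fits were also run on simulated data with known changes. These had less spread between mice than Mt1 and Mt2 showed. They also had less than Slc30a10 in Ctrl (coefficient of variation 29.1%) and Slc30a1 in Ctrl+FF (23.1%). That run therefore says nothing of these genes. Genes named are the 7 chosen ones, the 3 relatives with the highest mean FPKM over all 18 libraries and any relative that passed, up to 3 called genes of each other list per comparison, and the 5 most like Mt1. The 9 marker lists were for hepatocytes, Kupffer, sinusoidal endothelial and stellate cells, cholangiocytes, erythroid cells, lymphocytes, neutrophils and pancreas. The other settings tried were adding 0.1 FPKM before the log, no filter, a mean of at least 5 FPKM, upper quartile scaling, quantile normalization, array weights, voom on the recovered reads, and each library left out. Coordinates follow GRCm38 (GENCODE M21), and promoter windows come from RefSeq, matched for 6 of the 7 genes, all but Slc39a14. A planned comparison with protein values was not made, since no protein table was used here.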

Additional observations from a re-analysis of the deposited data

Results flagged for a closer look

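The diet effect on Slc30a10 with fenofibrate minus that without was -0.96 on the log2 scale, from a higher mean on the deficient diet without fenofibrate to a lower mean with it. This difference was itself the tested contrast, in 1 limma fit of the 18 libraries, and the gene had been chosen with this result known. Fenofibrate, the longer diet and the separate experiments cannot be told apart as sources of it.

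In the 28 sets of mice formed by the 7 genes and 4 groups, 0 had a mouse that stood apart from the others of its group by Dixon's test, which marks about 1 set in 20 by chance.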

How the results depend on the processing

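The genes called without fenofibrate numbered 313 in limma, 67 with no filter, where more genes were tested, and 98 to 332 with a library left out. The genes called with fenofibrate numbered 529, 885 with array weights, 272 with no filter and 175 to 596 with a library left out. The genes called for the difference of the diet effects numbered 27, 136 with array weights, 16 with a pseudocount of 0.1, 13 with voom and 17 to 66 with a library left out.

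Of the 7 genes, 1 was called without fenofibrate, 3 with array weights or voom, 0 with no filter and 1 to 2 with a library left out. Mt1 was in each of these counts but the 0, and Slc30a10 and Mt2 joined it. With fenofibrate 1 was called, 2 with array weights, upper quartile scaling or voom, where Slc30a10 joined Mt1, 0 with no filter and 0 to 2 with a library left out. For the difference 1 was called, 0 with no filter or with a mean of at least 5 FPKM, a filter that Slc30a10 does not pass, and 0 to 1 with a library left out.

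Of the relatives, 0 were called without fenofibrate and 1, Slc39a4, with array weights, a mean of at least 5 FPKM, a pseudocount of 0.1, quantile normalization, upper quartile scaling or voom, and 0 to 1 with a library left out. With fenofibrate 0 were called and 1, Slc39a5, with a mean of at least 5 FPKM or voom, and 0 to 1 with a library left out. For the difference it was 0 to 0. Beyond the filters and the left-out libraries, the cause of these changes was not tested.

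The 2 relations within groups stayed 2 in number under a pseudocount of 0.1 and quantile normalization. Of 1284 values of single genes under the alternatives, 1149 kept their direction and side of the threshold, 83 fell below it, 22 passed it, 30 values that were not called moved and 0 called values changed direction. No paired analysis was possible because the numbers of the mice mark no shared litter, batch or day across groups. Up to 12 reads per control library limit what can be said of Mt2.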

Other observations

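Levels stood far apart between the tables for 2 importers, and these values are set side by side without a comparison, since the tables were scaled separately and differ in weeks of diet as well as in fenofibrate. Slc39a5 was at 1.22 ± 0.552 FPKM in Ctrl and 20.4 ± 4.69 in Ctrl+FF, and at 1.503 ± 0.309 in B2D and 30.5 ± 2.26 in B2D+FF. Slc39a14 was at 24.6 ± 5.15 FPKM in Ctrl and 12.3 ± 1.14 in Ctrl+FF, and at 26.8 ± 3.68 in B2D and 14.9 ± 2.51 in B2D+FF.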
